A study of Homo sapiens with 33 samples.

Results

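Palmul-tang is a traditional herbal formula that combines the herbs of Sagunja-tang and Samul-tang, and its high dose was compared here with its low dose in a colon cancer cell line. The comparison takes 6 of the series' 33 libraries, chosen by their labels: 3 from cells given its ethanol extract at 500 µg/mL and 3 from cells given the same extract at 20 µg/mL. All were HT29 cells, an established human colorectal adenocarcinoma line that forms mucus-secreting and absorptive-like cells, harvested 24 h after treatment and profiled by stranded RNA sequencing. No vehicle library enters the contrast, so what it shows is the response to the dose step within the extract. For orientation, levels are also given for 3 libraries at 100 µg/mL (the medium dose), for 3 vehicle (DMSO) libraries, and for Sibjeondaebo-tang (3 libraries at each of the high and low doses), Samul-tang and Sagunja-tang (2 at each), which were given at the same doses. The herbs of Palmul-tang are all part of Sibjeondaebo-tang, which holds others besides. All titles carry batch E, and since separate cultures are not stated for the replicates, the p-values below reflect library-to-library spread alone, which may be technical. Palmul-tang and Sibjeondaebo-tang share a sample code prefix, Sagunja-tang and Samul-tang have another, and vehicle has its own. The labels do not say what these prefixes mean. Differences of Palmul-tang from vehicle, Samul-tang or Sagunja-tang cannot be told apart from whatever the prefixes mark.

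Plant extracts can hold electrophilic compounds that cells sense through KEAP1, a cysteine-rich adaptor that normally sends the transcription factor NRF2 (gene NFE2L2) to the proteasome. When KEAP1 is modified, NRF2 accumulates and, with small MAF partners, switches on genes that carry the antioxidant response element: enzymes that reduce carbonyls and quinones, make glutathione, break down heme and supply NADPH. Other sensors read other stresses: heat shock factor responds to misfolded protein, the SREBP factors to low membrane sterol, and the liver X receptors (LXR) to excess sterol. In colonic epithelium the goblet cell program makes the gel mucin MUC2 and its companions.

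The 9 Palmul-tang libraries held total counts, in units of 1e6, between 28.6 and 49.1, and mitochondrially encoded genes took 6.36% to 8.71% of them with no order by dose. The 12 markers of colorectal epithelium were all detected, with summed levels of 13343 to 14098 CPM (normalised counts per 1e6, scaled by TMM) at the high dose and 13604 to 13691 at the low dose. Of 10 fibroblast markers the sum was 2.04 to 2.24 CPM at the high dose and 2.20 to 2.92 at the low dose with PDGFRA at 0. The 8 endothelial markers summed to 49.5 to 53.4 and 44.1 to 47.0 CPM with CDH5 and KDR at 0. The 10 leukocyte markers summed to 1441 to 1584 and 1393 to 1576 CPM, nearly all of it LYZ, a lysozyme that secretory gut cells also make (1429 to 1572 CPM at the high dose), while CD3E and TYROBP were at 0. The 8 neuroendocrine markers summed to 3.75 to 4.20 and 3.61 to 4.25 CPM with SNAP25 and NEUROD1 at 0.

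Raising the dose from 20 to 500 µg/mL changed many genes, most of them by small amounts. Of 17432 genes tested, 2513 (14.4%) passed an adjusted p of 0.05 in edgeR's quasi-likelihood test, 1336 higher (7.66%) and 1177 lower (6.75%) at the high dose. The median log2 fold change of the higher calls was 0.19 and that of the lower calls -0.30. At least 1.5-fold change was seen in 67 higher and 206 lower calls, and at least 2-fold change in 30 and 56. The CPM of the 3 high-dose and 3 low-dose libraries did not overlap in 5634 genes (32.3%). High-dose libraries were relatively lower in long transcripts than low-dose libraries: the Spearman correlation, across genes, of a library's deviation with exon length was -0.12, -0.18 and -0.27 at the high dose and 0.17, -0.08 and 0.21 at the low dose. With trends over length and GC content removed, 3138 genes were called, 2155 higher and 983 lower, so that 68.7% of the calls were higher against 53.2% without this step.

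Aldo-keto reductases and an aldehyde dehydrogenase made up 4 of the 5 largest rises among genes named by rule, and the other was SLC38A4, a sodium-coupled neutral amino acid transporter. AKR1B10, which reduces aliphatic and retinoid aldehydes to alcohols, stood at 98.7, 98.2 and 94.5 CPM in the low-dose libraries and at 283, 278 and 261 CPM in the high-dose libraries. The rise was 2.82-fold (log2 1.5 ± 0.05 SE, adjusted p = 5.54e-18). The gene lies on chromosome 7 from 134527592 to 134541408 (GRCh38).

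AKR1C2, a 3-alpha-hydroxysteroid dehydrogenase, went from 12.3, 13.2 and 10.0 CPM to 37.8, 36.7 and 36.3 CPM, a 3.11-fold rise (log2 1.64 ± 0.07, adjusted p = 1.88e-15). Its neighbours on chromosome 10 rose less, AKR1C1 2.21-fold and AKR1C3 2.05-fold. AKR1C3 was uneven at the low dose, with 44.6, 65.3 and 46.3 CPM, but all 3 high-dose libraries, at 112, 102 and 105 CPM, lay above these. The AKR1C genes are close copies of each other, so the split of reads among them is uncertain. ALDH3A1, which oxidizes medium-chain and aromatic aldehydes, was tightly grouped: 28, 29.4 and 27 CPM at the low dose and 65.3, 65.5 and 67.3 CPM at the high dose (log2 1.23 ± 0.05, adjusted p = 7.36e-17).

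**Figure D1:**
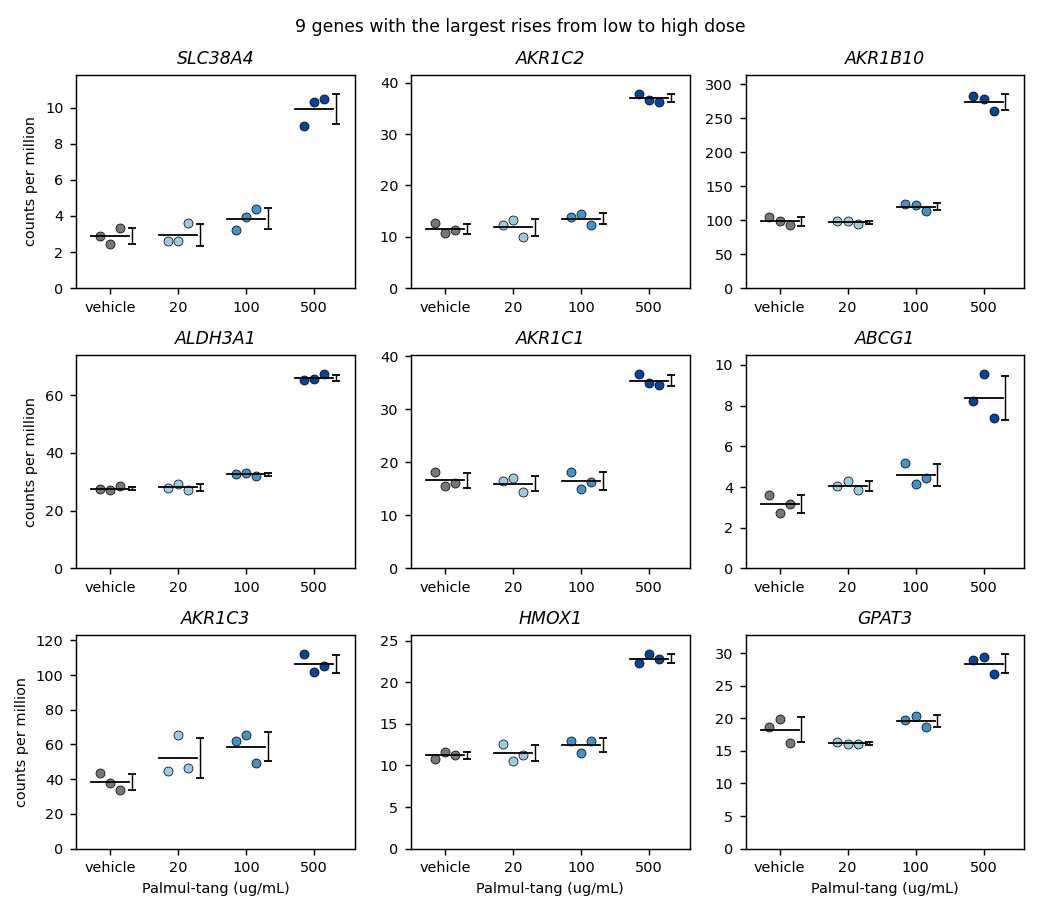
Normalised CPM (vertical axes, each from 0) of the 9 genes with the largest rises among those named by rule, in vehicle and at 20, 100 and 500 µg/mL Palmul-tang (horizontal axes). Each point is 1 library, the line is the mean and the bar beside it the SD (n = 3); in all 9 panels the 3 high-dose libraries lie above every medium-dose and vehicle library, and the rule that named the genes requires them to lie above the low dose.

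Across the list of 12 carbonyl reductases and aldehyde-handling enzymes, 11 were called higher and 0 lower, with a median log2 fold change of 0.83 against 0.00 over all genes tested. The shares over all genes tested, 7.66% higher and 6.75% lower, stand beside this and every further list count for high against low dose of Palmul-tang. ALDH1A1, a retinaldehyde dehydrogenase and the most abundant member, rose least among the called members, from 872, 944 and 877 CPM to 1165, 1165 and 1161 CPM (log2 0.37 ± 0.05, adjusted p = 2.94e-06). AKR1B1, the aldose reductase of the polyol pathway, had the largest fold, 5.04, but at levels below 0.5 CPM in every Palmul-tang library: 0.0492, 0.0737 and 0.141 at the low dose and 0.469, 0.477 and 0.396 at the high dose. CBR3 was the member not called, at 0.123 to 0.222 CPM at the low dose and 0.164 to 0.251 CPM at the high dose.

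Of the glutathione genes, GCLM and GCLC, the modifier and catalytic subunits of the ligase for the first step of glutathione synthesis, rose together. GCLM went from 66.6, 66.4 and 63.8 CPM to 115, 113 and 112 CPM (1.73-fold, log2 0.79 ± 0.05, adjusted p = 1.26e-12), and GCLC from 91.0, 88.8 and 90.0 CPM to 154, 149 and 149 CPM (1.67-fold, log2 0.74 ± 0.05, adjusted p = 6.29e-12). SLC7A11, the cystine importer that feeds this pathway, went from 134, 136 and 135 CPM to 234, 232 and 232 CPM (1.72-fold, adjusted p = 1.7e-13). Within each dose these 3 genes varied little.

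Of the 12 glutathione genes measured, 7 were called higher and 1 lower (median log2 0.24), against 7.66% and 6.75% of all genes tested. GSR, which regenerates reduced glutathione, rose by log2 0.43 ± 0.05 (adjusted p = 1.14e-07) and GPX2, the gastrointestinal glutathione peroxidase, by 0.41 ± 0.06 (adjusted p = 3.98e-05). GSS, the second enzyme of the synthesis, was not called (log2 -0.12). GGT1, which cleaves glutathione outside the cell, fell from 7.11, 7.15 and 8.17 CPM to 6.14, 5.13 and 6.15 CPM (log2 -0.36 ± 0.09, adjusted p = 0.00567), a call lost without the second high-dose library (adjusted p = 0.0512).

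Quinone and thioredoxin enzymes rose in 6 of 9 cases with 0 lower, against 7.66% and 6.75% of all genes tested. NQO1, the quinone reductase most often used to read NRF2 activity, was abundant at the low dose, at 529, 554 and 509.5 CPM, and reached 809, 788 and 795 CPM (1.5-fold, log2 0.59 ± 0.05, adjusted p = 7.82e-10). TXNRD1, cytosolic thioredoxin reductase, rose 1.55-fold (log2 0.63 ± 0.07, adjusted p = 1.87e-07) and SRXN1, which repairs overoxidized peroxiredoxins, by log2 0.54 ± 0.06 (adjusted p = 7.46e-08). TXN, thioredoxin itself, was called (log2 0.23, adjusted p = 0.0413), but its dose ranges overlapped and the call was lost without any of 5 of the 6 libraries (adjusted p = 0.222 without the first low-dose library). The peroxiredoxins PRDX1 (log2 0.24) and PRDX6 (0.13) were not called.

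In the heme and iron list, 6 of 9 were higher and 1 lower, against 7.66% and 6.75% of all genes tested. HMOX1, heme oxygenase 1, which opens the heme ring, went from 12.6, 10.6 and 11.3 CPM to 22.4, 23.4 and 22.8 CPM (1.99-fold, log2 0.99 ± 0.06, adjusted p = 3.41e-12). The ferritin chains that store iron followed: FTL rose from 2479, 2210.3 and 2100.1 CPM to 3223, 3308 and 3609 CPM (log2 0.58 ± 0.07, adjusted p = 6.65e-07) and FTH1 by log2 0.31 ± 0.05 (adjusted p = 3.94e-05). FECH, which inserts iron into protoporphyrin, and ABCB6, a porphyrin transporter, rose by log2 0.49 and 0.50. SLC40A1, the iron exporter ferroportin, went the other way, from 121, 126 and 132 CPM to 94.6, 96.2 and 97.8 CPM (log2 -0.39 ± 0.04, adjusted p = 3.46e-08).

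All 6 genes of the list for NADPH supply were called, 5 higher and 1 lower, against 7.66% and 6.75% of all genes tested. ME1, cytosolic malic enzyme, rose by log2 0.48 ± 0.03. TKT, transketolase, which is on the list but does not itself form NADPH, rose by 0.44 ± 0.03. IDH1, cytosolic isocitrate dehydrogenase, fell from 203, 202 and 204 CPM to 172, 173 and 178 CPM (log2 -0.22 ± 0.03, adjusted p = 3.37e-05).

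The regulators moved little. NFE2L2 transcript was 128, 119 and 119.8 CPM at the low dose and 120.4, 122 and 128 CPM at the high dose (log2 0.01 ± 0.04, adjusted p = 0.907), and BACH1, the repressor that competes for the same elements, was also not called (log2 0.00). Of 10 regulators, 4 were called higher and 0 lower, against 7.66% and 6.75% of all genes tested. SQSTM1, an autophagy receptor that sequesters KEAP1, rose by log2 0.29 ± 0.06 (adjusted p = 0.00098), MAFG, a small MAF partner, by 0.28 ± 0.05 (adjusted p = 7.74e-05) and TRIM16 by 0.52 ± 0.05 (adjusted p = 5.36e-08). KEAP1 rose by log2 0.21 ± 0.06 (adjusted p = 0.0165), a call lost without the first high-dose library (adjusted p = 0.0759) and without the first (0.0602) or the third (0.0917) low-dose library. TRIM16 and TRIM16L, which rose by log2 0.73, share sequence, so their reads are not cleanly separable.

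The core of the antioxidant response element, searched as TGACNNNGC on both strands, was looked for in RefSeq promoter windows (GRCh38.p14, 250 bases before to 50 after each start). It lay in 13.3% of all 35116 windows and near 4384 of 27305 symbols (16.1%). Among the genes of these 5 effector lists with a window it was present for 14 of 38 (36.8%), among them GGT1 and IDH1, which fell. Among the 15 largest rises it was present for 1 of the 9 with a window (11.1%), GCLM. Matches further than 250 bases before a start were not looked for, so a gene without a match may hold the element elsewhere. A match is only a run of letters and does not show a bound site. The lists group genes by pathway, so their motif shares, here and below, describe the lists and not the response to dose. The following upstream stretches, shown because these genes rose and hold a match, are written 5′ to 3′ on the gene's strand with the match in capitals.
TXNRD1, chr12:104215655-104215713, plus strand: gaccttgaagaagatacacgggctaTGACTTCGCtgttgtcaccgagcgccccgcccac
ME1, chr6:83431155-83431213, minus strand: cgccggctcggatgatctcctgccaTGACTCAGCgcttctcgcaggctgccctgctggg
EPHX1, chr1:225825251-225825309, plus strand: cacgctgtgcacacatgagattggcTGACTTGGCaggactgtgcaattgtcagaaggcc
GCLM, chr1:93909450-93909470, minus strand: atttctGCTTAGTCAttgtct
GPX2, chr14:64942853-64942873, minus strand: gtttttGCTAAGTCAtcctgg
In TXNRD1, ME1 and EPHX1 the match reads along the gene's strand, and in GCLM and GPX2 it reads on the other strand. The GCLM match ends 26 bases before the annotated start and the ME1 match 129 bases before it, counted from RefSeq starts. In GENCODE all 21 bases of the GPX2 stretch and 7 of the 21 of the GCLM stretch lie in an annotated exon. EPHX1, microsomal epoxide hydrolase, rose from 120.0, 104 and 110.3 CPM to 175, 168 and 171 CPM (log2 0.62 ± 0.05, adjusted p = 3.29e-10).

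Conjugation and efflux genes rose in 7 of 12 cases and fell in 1. Over all genes tested 7.66% were called higher and 6.75% lower, shares that also stand beside the aryl hydrocarbon receptor genes below. UGT1A1, the bilirubin glucuronosyltransferase, went from 41.0, 41.3 and 36.9 CPM to 67.4, 69.1 and 63.6 CPM (1.68-fold, adjusted p = 4.07e-10), while UGT1A6 and UGT1A10 rose by log2 0.63 and 0.42. The UGT1A genes share their last exons, so their values are not independent. ABCC2, the apical conjugate exporter, was low but rose from 1.65, 1.45 and 1.32 CPM to 3.28, 2.76 and 2.96 CPM (2.03-fold, adjusted p = 8.65e-05). The single lower call was ABCB1, P-glycoprotein, at 0.737 to 0.960 CPM falling to 0.492 to 0.563 CPM (adjusted p = 0.0472), and it was not called when any of the 6 libraries was left out. Of 7 aryl hydrocarbon receptor genes 0 were called higher and 1 lower, NEDD9, a scaffold protein (log2 -0.27, adjusted p = 0.00448). The higher count was 1 without the filter on low counts, with only the groups compared (with or without the replicate block) and with length and GC trends removed. CYP1A1, the classic target, was not called (log2 0.97 ± 0.50, adjusted p = 0.221).

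**Figure D2:**
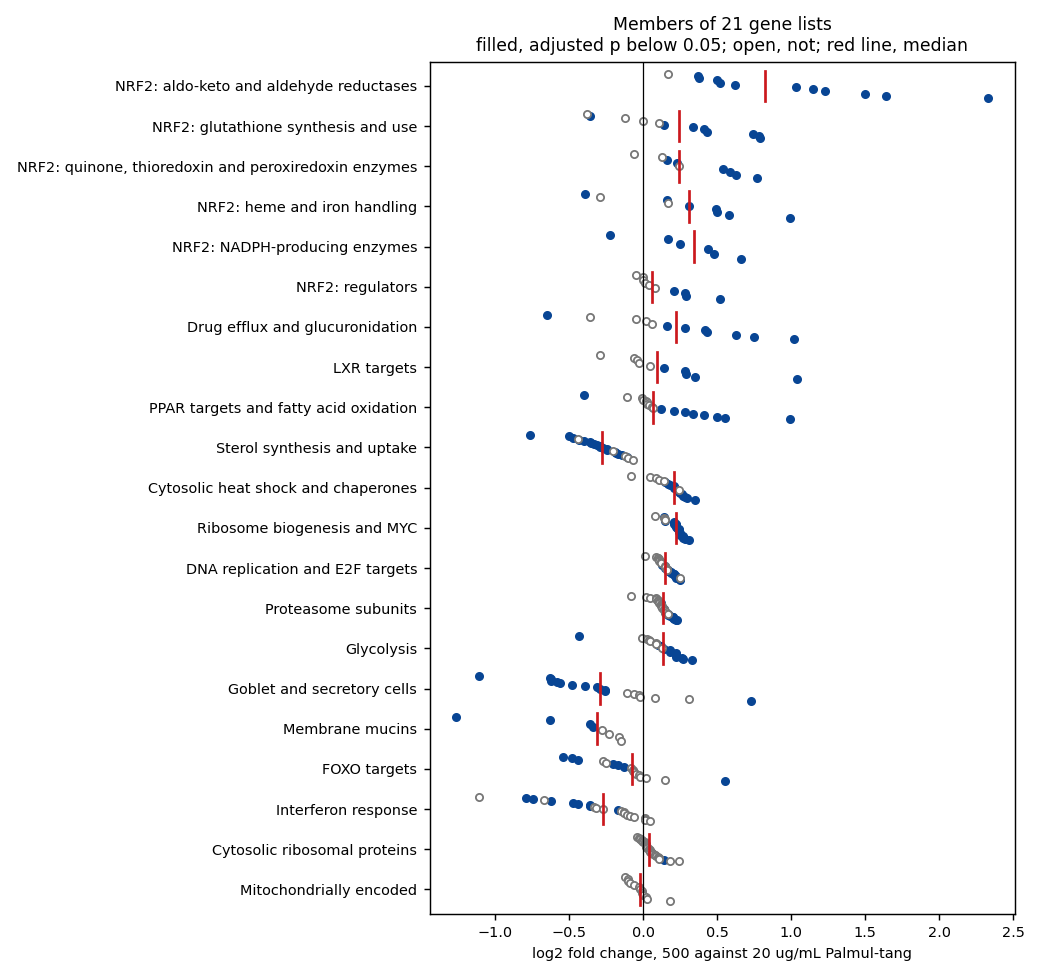
Log2 fold change of high over low dose (horizontal axis) for each measured member of 21 gene lists (rows); filled points passed an adjusted p of 0.05, open points did not, and the red line is the list median. The carbonyl reductase list has a median of 0.83, the sterol list of -0.28 with no member above 0, and mitochondrially encoded genes sit around -0.02 with 0 called.

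Of 24 sterol synthesis and uptake genes 19 fell, against 6.75% of all genes tested. All 24 genes of sterol synthesis and uptake had log2 fold changes below 0, 0 were called higher, 5 were not called, and the median was -0.28. HMGCS1, which makes HMG-CoA, went from 283, 279.9 and 274 CPM to 208, 194 and 189.7 CPM (1.41-fold lower, log2 -0.50 ± 0.06, adjusted p = 6.35e-07). INSIG1, the sterol-sensing anchor of the SREBP system, went from 174, 168 and 172 CPM to 129, 127 and 125 CPM (log2 -0.43 ± 0.04, adjusted p = 1.46e-08).

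Further down the pathway the calls covered MVK, MVD, IDI1, FDPS and FDFT1 of the isoprenoid arm, and SQLE, LSS, CYP51A1, TM7SF2, MSMO1, NSDHL, EBP and SC5D of the sterol arm. The calls on FDPS and EBP were weak, each lost in 4 of the 6 fits that left out a library (adjusted p up to 0.118 and 0.124). LSS, which closes the sterol rings, fell from 127, 125 and 119 CPM to 100.3, 95.8 and 92.5 CPM (log2 -0.36 ± 0.03, adjusted p = 1.72e-08). DHCR7 (log2 -0.12), a late enzyme of the arm, was not called, nor was SREBF2 (-0.10), which encodes the controlling factor.

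ACSS2, which makes cytosolic acetyl-CoA from acetate and is another SREBP target, was among the 15 largest falls: 30.6, 28.3 and 29.8 CPM at the low dose against 16.7, 14.6 and 14.1 CPM at the high dose (1.95-fold, log2 -0.96 ± 0.07, adjusted p = 3.54e-11). The main fatty acid synthesis enzymes showed no such difference. FASN was not called (1114, 987 and 982 CPM against 1111, 1004 and 968 CPM, log2 -0.00, adjusted p = 0.998), ACACA (0.04), ACLY (-0.07) and SCD (-0.04) were not called, and of 11 genes on that list 4 were higher and only ACSS2 was lower.

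LXR targets split. ABCG1, a sterol exporter, rose 2.05-fold, from 4.04, 4.32 and 3.83 CPM to 8.23, 9.55 and 7.38 CPM (log2 1.04 ± 0.10, adjusted p = 2.58e-08). ABCA1, the other main sterol exporter of this group, was not called and its doses overlapped (6.60, 5.87 and 6.23 CPM against 5.04, 6.16 and 6.70 CPM, adjusted p = 0.785). MYLIP, a ubiquitin ligase, rose by log2 0.29 ± 0.06 and LPCAT3, a phospholipid remodelling enzyme, by 0.35 ± 0.05. On the list of 10, 5 were called higher and 0 lower. SREBF1 is among these (log2 0.14, adjusted p = 0.0085), and without the second low-dose library its adjusted p was 0.0907.

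**Figure D3:**
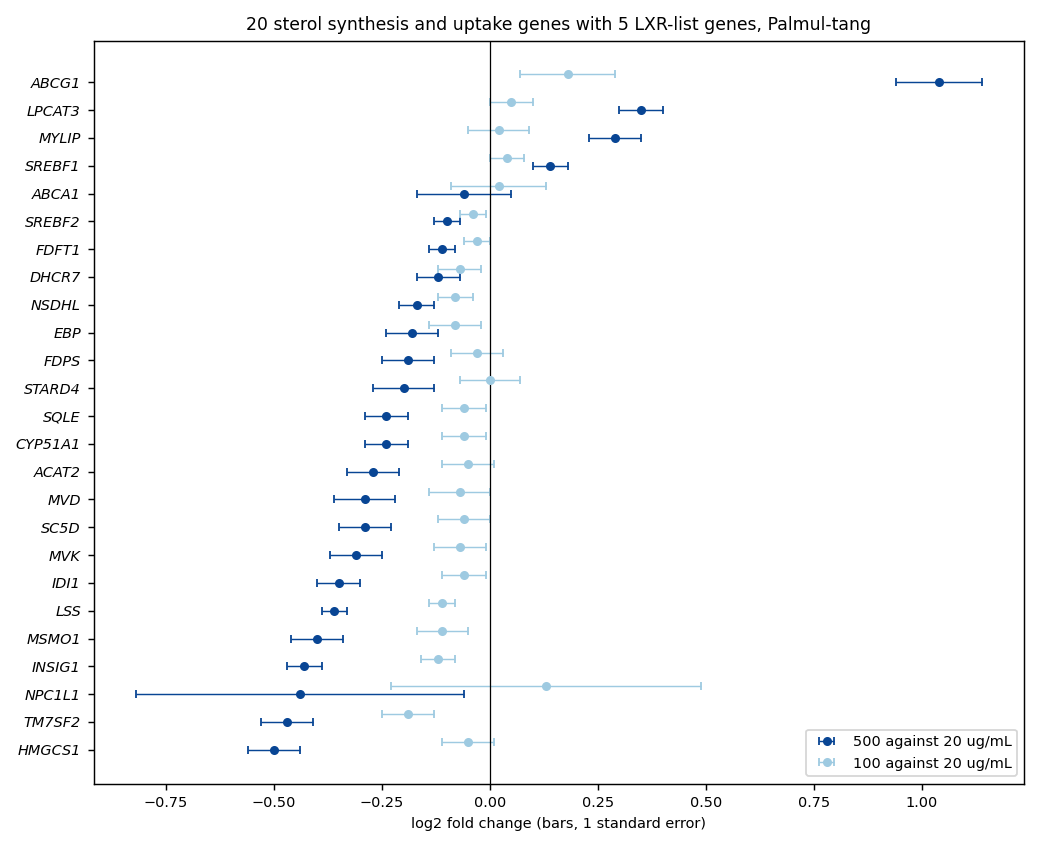
Log2 fold changes with bars of 1 standard error (horizontal axis) for 20 sterol synthesis and uptake genes and 5 genes of the LXR list (rows), for 500 against 20 µg/mL (dark) and 100 against 20 µg/mL (light); both use the same low-dose libraries. The dark points of the 20 sterol genes shown run from -0.10 for SREBF2 to -0.50 for HMGCS1, and ABCG1 stands apart at 1.04. Not all 24 sterol genes of the list are shown, and the full list runs from -0.76 to -0.07.

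Genes of fatty acid breakdown that PPAR factors control rose in 8 of 18 cases and fell in 1, against 7.66% and 6.75% of all genes. FABP1, the liver-type fatty acid binding protein of enterocytes, went from 1.77, 2.46 and 2.11 CPM to 4.41, 3.94 and 4.21 CPM (1.98-fold, adjusted p = 2.08e-06). CPT1A, which admits fatty acids to mitochondria, rose by log2 0.41 ± 0.04 (adjusted p = 1.62e-07) and PDK4, which restrains pyruvate oxidation, by 0.55 ± 0.07 (adjusted p = 4.67e-06). The core oxidation enzymes HADHA (0.02) and ACADM (0.07) were not called. VNN1, a pantetheinase, fell (log2 -0.40 ± 0.07, adjusted p = 0.000102).

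Chaperones rose by small amounts in most members: 13 of 19 were called higher and 0 lower, with a median log2 of 0.21. Over all genes tested 7.66% were called higher and 6.75% lower. HSPA8, the constitutive HSP70, went from 2839, 2683 and 2851 CPM to 3238, 3209.9 and 3227 CPM (log2 0.21 ± 0.04, adjusted p = 0.000259). FKBP4, a co-chaperone of HSP90 at steroid receptors, rose most (239, 225 and 223 CPM to 301, 291 and 284 CPM, log2 0.35 ± 0.04, adjusted p = 4.14e-08). HSPH1, a nucleotide exchange factor for HSP70, rose by 0.26 ± 0.04 (adjusted p = 4.93e-06). The inducible HSPA1A rose by 0.30 ± 0.06 (adjusted p = 0.000416), with HSPA1B a near-identical copy that shares its reads. DNAJB1 (0.09) and HSPB1 (-0.08), both strongly heat-inducible, were not called.

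A strict heat shock element, read as GAA, any 2 bases, TTC, any 2 bases and GAA, was found on either strand in 0.490% of the promoter windows. On the chaperone list it was present for 6 of 18 symbols (33.3%) against 166 of 27305 (0.608%) overall. Stretches of HSP90AA1, which rose by log2 0.24 ± 0.04, and of HSPD1, mitochondrial HSP60, which rose by 0.17 in a call lost in 5 of the 6 fits that left out a library (adjusted p up to 0.122), are shown with matches in capitals, written 5′ to 3′ on the gene's strand. The HSPD1 run holds overlapping matches on both strands. All bases of both stretches lie in exons annotated by GENCODE.
HSP90AA1, chr14:102087114-102087138, minus strand: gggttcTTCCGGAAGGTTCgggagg
HSPD1, chr2:197500062-197500090, minus strand: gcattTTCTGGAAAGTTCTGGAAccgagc
Of 21 endoplasmic reticulum folding genes, 8 were higher and 0 lower. HSPA5 (BiP) rose by log2 0.24 ± 0.04 (adjusted p = 0.000108), while the stress-arm genes DDIT3 (-0.21) and XBP1 (0.04) were not called.

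Of 26 ribosome biogenesis genes 22 rose, by small amounts. None was called lower, and the median log2 fold change was 0.23. The 2 dose groups did not overlap in any of the 26, against 32.3% of all genes tested. Of all genes tested 7.66% were called higher and 6.75% lower. MYC, a transcriptional driver of these genes, went from 269.9, 264 and 264 CPM to 317, 316 and 319 CPM (log2 0.25 ± 0.05, adjusted p = 0.000291). In vehicle MYC was 311 ± 1.96 CPM (SD, n = 3), so its low dose lay below vehicle and its high dose close to it. NCL, nucleolin, went from 1060.3, 1089 and 1084 CPM to 1261, 1362 and 1304 CPM (log2 0.28 ± 0.04, adjusted p = 4.3e-05), and RRP9, a U3 snoRNP protein, from 37.8, 37.1 and 38.9 CPM to 46.0, 45.4 and 46.1 CPM (log2 0.27 ± 0.04, adjusted p = 1.9e-05). Of 34 cytosolic ribosomal proteins 1 was called, with a median of 0.04.

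The E-box CACGTG, the letters MYC and related factors bind, lay in the promoter windows of 9 of 20 of these genes (45.0%), against 2396 of 27305 symbols (8.77%) overall. It is a palindrome, so both strands are read at once. DDX21, a nucleolar helicase that rose by log2 0.21 ± 0.03 (adjusted p = 0.000119), holds it before its RefSeq start, in bases that GENCODE annotates as exon, with capitals marking the match.
DDX21, chr10:68956610-68956627, plus strand: gtgtccCACGTGgtcccc
The match ends 26 bases before the RefSeq start.

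Of 31 DNA replication genes, 16 were called higher and 0 lower (median log2 0.15), against 7.66% and 6.75% of all genes tested. CDC6, which loads the replicative helicase, rose from 84.3, 85.3 and 82.0 CPM to 102, 99.1 and 98.3 CPM (log2 0.25 ± 0.03, adjusted p = 1.36e-06), and MCM5, a subunit of that helicase, from 109, 111 and 108 CPM to 125, 128 and 128 CPM (log2 0.22 ± 0.03, adjusted p = 1.76e-05). With the length and GC trends removed, 27 of the 31 were called. Mitosis genes were called in 10 of 29 cases, all higher, with PLK1, a mitotic kinase, at log2 0.24 ± 0.06 (adjusted p = 0.00333). That count fell to 5 without the second low-dose library and to 6 without the third high-dose library, and CDK1 (0.07) and MKI67 (0.08) were not called. How far the transcript length trend contributes to these growth lists was not tested beyond that fit.

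Glycolysis genes were higher in 12 of 20 cases and lower in 1. Over all genes tested 7.66% were called higher and 6.75% lower, the shares for every list of this paragraph. PFKP, a platelet-type phosphofructokinase, rose by log2 0.33 ± 0.04 (adjusted p = 1.93e-07) and ENO1, an enolase, by 0.27 ± 0.06 (adjusted p = 0.00145), while ALDOC, an aldolase, fell by 0.43 on the log2 scale (adjusted p = 3.63e-06). Proteasome subunits were higher in 12 of 34 cases, 7 without the third low-dose library. PSMD3, of the regulatory particle, rose by log2 0.22 ± 0.03 (adjusted p = 1.73e-06). Among 18 amino acid transporters 6 rose and 2 fell, the latter 1 without the third high-dose or the third low-dose library. SLC38A4 went from 2.61, 2.6 and 3.64 CPM to 8.98, 10.3 and 10.5 CPM, the largest rise of the genes named by rule (3.39-fold, log2 1.76 ± 0.12, adjusted p = 3.54e-11), whereas SLC6A20, a proline transporter of absorptive cells, fell from 8.44, 8.33 and 8.77 CPM to 4.83, 5.20 and 5.21 CPM (log2 -0.74 ± 0.07, adjusted p = 4.11e-09).

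Genes of the ATF4 amino acid response were called higher in 10 of 25 cases and lower in 1, against 7.66% and 6.75% of all genes tested. The higher count was 5 without the first high-dose library and 6 without the first low-dose library. The transport members of the ATF4 list moved most, with SLC7A5 and SLC3A2, which form the large neutral amino acid exchanger, at log2 0.33 ± 0.05 and 0.36 ± 0.07. The typical stress genes TRIB3 (0.02), ATF3 (0.01) and CHAC1 (0.00) were not called. Nuclear-encoded respiratory chain genes gave 1 call among 35 and mitochondrially encoded genes 0 among 13, against 14.4% of all genes tested.

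Of 19 secretory and goblet genes, 12 fell, 1 rose and 6 were not called, with a median log2 of -0.29, and 8 were lower without the first high-dose library. Over all genes tested 6.75% were called lower and 7.66% higher. REG4, a secreted lectin of secretory cells, went from 28.9, 28.1 and 31.2 CPM to 18.4, 18.5 and 20.5 CPM (log2 -0.62 ± 0.07, adjusted p = 1.65e-07). ATOH1, the factor that sets secretory fate, went from 4.83, 5.38 and 4.73 CPM to 3.14, 3.14 and 3.44 CPM (log2 -0.62 ± 0.14, adjusted p = 0.00345). CREB3L1, an endoplasmic reticulum-bound factor of secretory cells, went from 162, 166 and 174 CPM to 116, 119 and 124 CPM (log2 -0.48 ± 0.06, adjusted p = 5.13e-07). Vehicle lay above both doses for REG4, at 36.2 ± 2.53 CPM, and for CREB3L1, at 204 ± 14.2 CPM (SD, n = 3). These are bulk libraries, in which fewer cells of a type and less RNA per cell cannot be told apart.

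MUC2, the gel-forming mucin, went from 18.8, 17.8 and 16.8 CPM to 12.7, 14.1 and 13.9 CPM (log2 -0.39 ± 0.12, adjusted p = 0.0225). That call was lost without the first high-dose library (adjusted p = 0.0978) or the first low-dose library (0.089). SPINK4 fell furthest (log2 -1.11 ± 0.34, adjusted p = 0.0266) but from 0.592 to 1.08 CPM, and the call was lost in 4 of the 6 fits that left out a library (adjusted p up to 0.132). The member called higher was TFF2, a gastric trefoil peptide, at 0.541 to 0.911 CPM against 0.891 to 1.40 CPM, ranges that overlap, and its call was lost in 3 of the 6 fits that left out a library (adjusted p from 0.0676 to 0.125). Of 8 membrane mucins, which form the glycocalyx, 4 were lower and 0 higher, among them MUC13, which went from 151, 139 and 142 CPM to 94.3, 91.6 and 93.5 CPM (log2 -0.63 ± 0.04, adjusted p = 2.34e-12).

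Absorptive markers were mixed. VIL1, the microvillus protein villin, fell from 181, 182 and 181 CPM to 143, 144 and 141 CPM (log2 -0.35 ± 0.03, adjusted p = 1.89e-10), and SLC5A1, the sodium-glucose cotransporter, by 0.55 ± 0.07 on the log2 scale (adjusted p = 1.59e-06). KRT20, a keratin of mature colonocytes, rose (log2 0.29 ± 0.05, adjusted p = 7.5e-05), as did FABP1 above. The list of 15 gave 2 higher and 5 lower calls, the latter 3 without the first high-dose library. For this list and the next, the shares over all genes tested are 7.66% higher and 6.75% lower. Of 18 stem cell and Wnt genes, 1 was higher and 4 lower, the latter 2 without the third low-dose library: PROX1, a homeobox factor, went from 13.1, 12.2 and 13 CPM to 7.22, 7.29 and 7.93 CPM (log2 -0.77 ± 0.07, adjusted p = 9.82e-09), while LGR5 (0.01) and AXIN2 (-0.01), the usual readouts of Wnt signalling, were not called.

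The largest fall among genes named by rule was that of SLC14A1, a urea transporter, at 5.64, 5.70 and 6.71 CPM against 2.23, 2.19 and 2.25 CPM (2.7-fold, log2 -1.43 ± 0.14, adjusted p = 1.95e-08). NOX1, the superoxide-producing oxidase of colonic epithelium, went from 16.2, 17.1 and 18.5 CPM to 7.62, 9.20 and 9.82 CPM (1.94-fold, log2 -0.96 ± 0.09, adjusted p = 6.58e-09). CD200, a surface ligand that restrains myeloid cells, went from 7.46, 7.27 and 8.91 CPM to 3.45, 3.72 and 4.19 CPM (2.07-fold, log2 -1.05 ± 0.09, adjusted p = 6.27e-09). That the doses do not overlap in these genes is part of the rule that named them. The 15 largest falls also held CLIC5, an intracellular chloride channel protein that binds actin linkers, by 0.86 ± 0.07, SYTL2, a RAB27 effector, by 0.82 ± 0.07, and MYO7B, a microvillus myosin, by 0.78 ± 0.10 on the log2 scale. FAM131B, TP53INP2, FAXDC2, AKAP7, TDGF1 and TP53INP1 were also among them, as were PROX1 and ACSS2, at log2 -0.96 to -0.76.

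**Figure D4:**
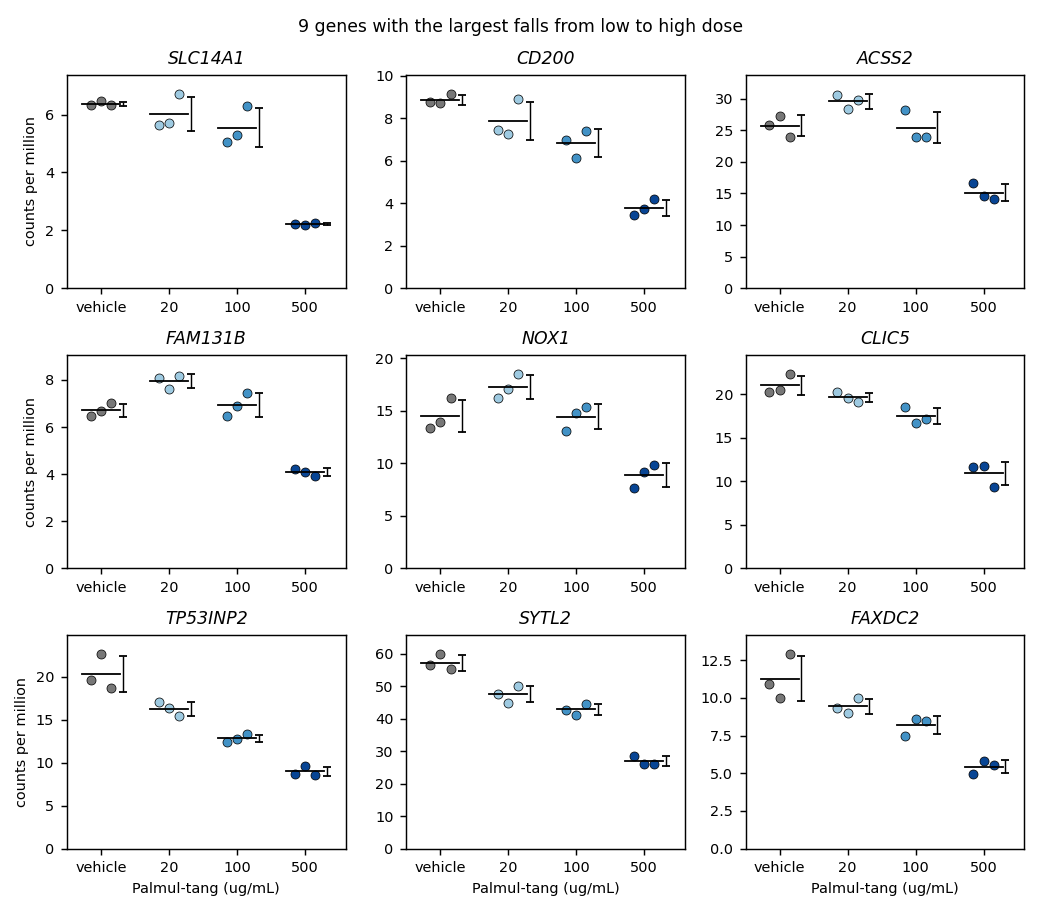
Normalised CPM (vertical axes, each from 0) of the 9 genes with the largest falls among those named by rule, in vehicle and at 20, 100 and 500 µg/mL Palmul-tang (horizontal axes). Each point is 1 library, the line is the mean and the bar beside it the SD (n = 3); in all 9 panels the 3 high-dose libraries lie below every medium-dose and vehicle library, and the rule that named the genes requires them to lie below the low dose.

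Growth-restraining genes controlled by FOXO factors were lower in 6 of 18 cases and higher in 1. For this list and the others of this paragraph, the shares over all genes tested are 6.75% lower and 7.66% higher. CCNG2, an atypical cyclin of quiescence, went from 35.4, 37.3 and 35.8 CPM to 23.1, 25.4 and 26 CPM (log2 -0.54 ± 0.04, adjusted p = 6.06e-10). SESN1, a sestrin that is also a p53 target, went from 36.8, 37.9 and 38.7 CPM to 27.2, 26.9 and 27.3 CPM (log2 -0.48 ± 0.04, adjusted p = 4.24e-09). Of 18 p53 genes 2 were higher and 4 lower, and the lower count was 2 without either the first or the second high-dose or the first or the second low-dose library. The higher count was 1 without any 1 of these libraries or the third low-dose library. HT29 is known to carry mutant p53. CDKN1A, the p21 inhibitor, fell by 0.23 on the log2 scale (adjusted p = 0.0347), a call kept in only 1 of the 6 fits that left out a library. Among 22 EGFR and MAPK output genes 7 were higher and 1 lower, with FOSL1, an AP-1 subunit, at log2 0.55 ± 0.09 (adjusted p = 0.000101), and the higher count was 4 without the first or the third high-dose or the second low-dose library.

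More genes were called above the medium dose than below it. Between 100 and 500 µg/mL 1214 genes (6.96%) were called, 663 higher and 551 lower. That count was 728 without the first high-dose library, 777 without the second and 800 without the third medium-dose library. Between 20 and 100 µg/mL only 1 gene (0.00574%) was called, AKR1B10, from 98.7, 98.2 and 94.5 CPM to 124, 122 and 114 CPM (log2 0.31, adjusted p = 0.0252). Without adjustment and without a replicate block, 836 of 17432 genes had p below 0.05 in that step, no more than that cutoff would pass if no gene changed. DESeq2 called 6. With the replicate number as a block the count was 1 over all libraries and 3 with only the groups compared, against 0 in the same groups without it. Unadjusted p below 0.05 was then reached by 986 of 17432 genes over all libraries. With only the groups compared it was reached by 1168 of 16003 genes, against 548 without the block. Both blocked numbers exceed what that cutoff would pass if no gene changed, so a response at the medium dose is not excluded. The call on AKR1B10 did not survive leaving out any of the 3 low-dose libraries or the first or second medium-dose library. These steps share libraries with the full comparison, so they are set beside it only to place the medium dose.

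Of the 12 carbonyl reductases 11 were called higher between 100 and 500 µg/mL, with a median log2 of 0.70, and 13 of the 24 sterol genes were called lower (median -0.22). AKR1C2 was 13.9, 14.4 and 12.3 CPM at 100 µg/mL, and the vehicle mean was 11.6 ± 1.00 CPM (SD, n = 3). HMOX1 was 13, 11.5 and 12.9 CPM at 100 µg/mL and 11.2 ± 0.383 CPM (SD, n = 3) in vehicle. GPAT3, a glycerol-3-phosphate acyltransferase, was graded: 16.4, 16.1 and 16 CPM, then 19.7, 20.4 and 18.7, then 29, 29.5 and 26.8, though vehicle at 18.3 ± 1.89 CPM (SD, n = 3) lay above the low dose. TP53INP2, an autophagy regulator, was graded downward from 17, 16.3 and 15.4 CPM through 12.4, 12.7 and 13.3 to 8.72, 9.62 and 8.61. Neither GPAT3 nor TP53INP2 was called between 20 and 100 µg/mL, so the lower part of each grading is description only.

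The same dose step in Sibjeondaebo-tang, which shares no library with it, differed from that of Palmul-tang in 252 genes (1.45%) by an interaction test, 247 with the higher value in Palmul-tang and 5 with the lower. Higher values made up 98.0% of these calls, 84.4% without the filter on low counts and 83.6% with length and GC trends removed. The 5 higher genes named by rule fell in Sibjeondaebo-tang, and 4 of them were not called in Palmul-tang. GOLGA8A was 98.0, 101 and 106 CPM at low and 95.9, 92.5 and 91.8 CPM at high dose of Palmul-tang, against 95.3, 97.0 and 104 and then 50.1, 51.2 and 51.3 CPM in Sibjeondaebo-tang (difference of log2 changes 0.83, 95% interval 0.72 to 0.95, adjusted p = 1.59e-10). GOLGA8A alone of the 5 was also called within Palmul-tang (log2 -0.12, adjusted p = 0.0281), a call lost in 3 of the 6 fits that left out a library (adjusted p up to 0.165). FER1L4 (difference 0.78), PABPC1L (0.87), CSAD (1.00) and HERC2P2 (0.89) differed in the same direction, and these 5 differences were called in every alternative run. GOLGA8A and HERC2P2 belong to families of near-identical copies, so their reads are uncertain.

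AKR1C2 rose less with Palmul-tang than with Sibjeondaebo-tang: log2 1.64 ± 0.07 against 2.31 ± 0.07, with Sibjeondaebo-tang going from 9.92, 9.68 and 9.83 CPM to 47.1, 47.9 and 50.6 CPM (difference -0.67, 95% interval -0.88 to -0.46, adjusted p = 0.000264). CLIC3 fell more with Palmul-tang (-0.62 against -0.26). SLC16A1, a lactate and butyrate carrier, was not called with Palmul-tang (0.06) and rose with Sibjeondaebo-tang (0.21), and COIL, the Cajal body coilin, went -0.14 against 0.14. These last 3 calls were close to the threshold: of the 12 fits that left out a library, COIL lost the call in 6, CLIC3 in 10 and SLC16A1 in 12. The other lower call, COL1A1, was named after its values were seen, lost the call in 9 of them and was below 2 CPM in all these libraries. For the other rises and falls named by rule the difference was not called, with intervals such as -0.30 to -0.01 for AKR1B10, -0.05 to 0.30 for HMOX1 and -0.41 to 0.39 for SLC14A1.

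**Figure D5:**
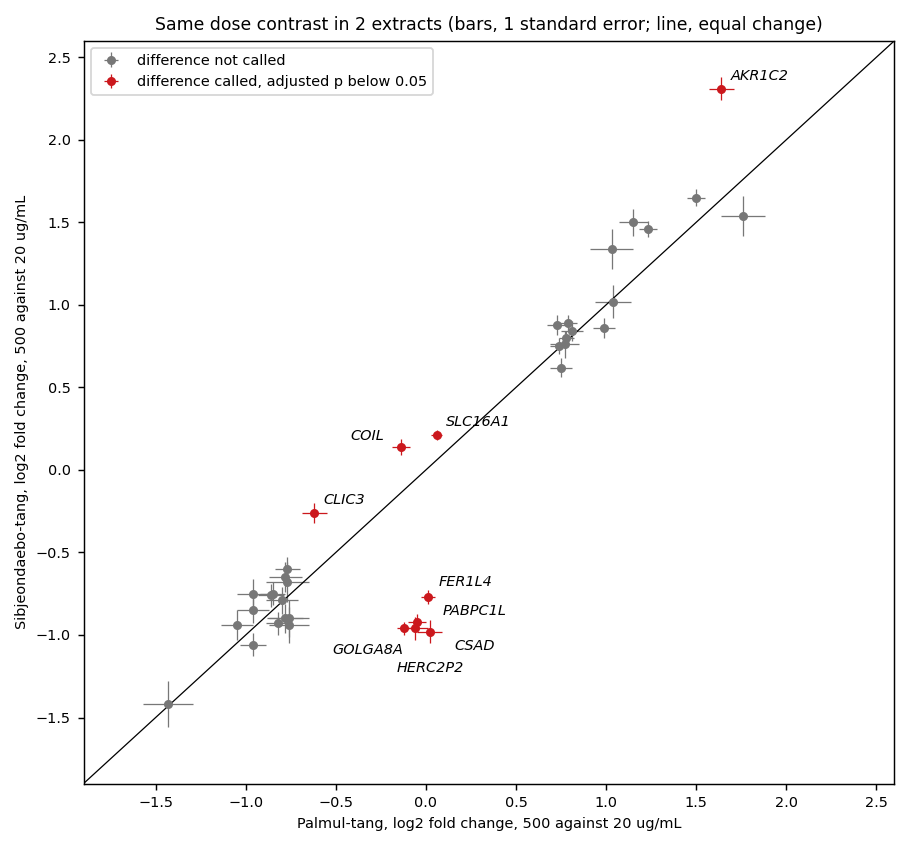
Log2 fold change of high over low dose in Palmul-tang (horizontal axis) and in Sibjeondaebo-tang (vertical axis), with bars of 1 standard error, for the 30 largest rises and falls and the genes named from the interaction tests; red points had a called difference. Most points lie near the line of equal change, while GOLGA8A, FER1L4, PABPC1L, CSAD and HERC2P2 sit near 0 for Palmul-tang and between -0.98 and -0.77 for Sibjeondaebo-tang.

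Against the formulas whose herbs it combines, few differences could be called. For Samul-tang 0 genes (0%) passed, and DESeq2 called 4. In the main fit an unadjusted p below 0.05 was reached by 691 of 17432 genes, and by 807 with the replicate number as a block. Neither is more than that cutoff would pass if no gene differed. With only the groups compared it was reached by 942 of 16743 genes, and by 1226 with the block, both more than the cutoff would pass. AKR1C2 rose by log2 2.23 ± 0.09 with Samul-tang, a difference of -0.60 (95% interval -0.83 to -0.37, adjusted p = 0.122). For Sagunja-tang 1 gene (0.00574%) passed, AKR1B10, which went from 93.6 and 101 CPM to 200.3 and 177 CPM there (log2 0.96 ± 0.06, difference 0.54, 95% interval 0.38 to 0.70, adjusted p = 0.00372). At an unadjusted p below 0.05 there were 1501 genes, and DESeq2 called 22. The call was lost without the third low-dose Sagunja-tang library (adjusted p = 0.214), and without the third high-dose Sagunja-tang library 1636 genes were called, so this comparison rests on single libraries. Within each extract 11 of 12 carbonyl reductases were higher with Palmul-tang, 12 with Samul-tang and 10 with Sagunja-tang, and 19, 10 and 5 of 24 sterol genes were lower, counts that these tests do not show to differ. The share of all genes called within Samul-tang or Sagunja-tang was not taken, so their counts have no background beside them. They also rest on 2 libraries per dose, against 3 for Palmul-tang.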

How the data were processed

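RNA of 33 HT29 libraries in 13 labelled groups was analysed. The submitters' processing notes name FastQC 0.11.9, Trim Galore 0.6.5, STAR 2.7.3a and RSEM 1.3.3, with hg38 as the build; the annotation release is not given in the sources used here. The authors deposited expected counts per gene, estimated with RSEM per the submitters' processing notes. Of these values 9.45% were not whole, and they were rounded here. The table held 240 other columns, which were not used. The labels and the series text give different DMSO percentages for vehicle.

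Of 60675 genes, 17432 passed filterByExpr (minimum count 10). edgeR 4.0.16 in R 4.3.3 fitted all 33 libraries with TMM scaling and a coefficient for each group. Its quasi-likelihood F test was adjusted over all genes by Benjamini-Hochberg, at a threshold of 0.05. SE is the absolute log2 fold change divided by the square root of F, and intervals are 95% intervals of that fit. The Palmul-tang libraries held total counts, in units of 1e6, of 28.6 to 49.1. Positions came from GENCODE 29 and promoter windows from RefSeq (GRCh38.p14). The test was run on simulated counts with 200 genes changed. It recovered 38.8% of changes of log2 0.25, 62.7% of 0.5 and 75.8% of 1, with 3 false calls among 121. A gene not called may thus still have changed. The counts were drawn independently with the spread of this fit, so shared replicate deviations and the length trend were not covered. Same-numbered libraries at medium and low dose deviated together (correlations 0.23, 0.62 and 0.47), so blocked counts are given for that step.

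The members, the 48 gene lists and their rules were chosen with earlier results of these data known. Genes named by rule were the 15 largest rises and 15 largest falls among calls (mean log2 CPM 2 or more, standard symbol, doses that do not overlap), the first 3 and up to 3 smallest-p members of each list, and up to 5 genes each way per interaction. Further list members were named after their values were seen, and some genes that the rule names are not reported here. Alternatives were DESeq2 1.42.0, RLE size factors, no filter, only the groups compared, the replicate number as a block, CPM of raw library totals, leaving out each library, and, chosen after seeing the data, removal of GC and length trends.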

Additional observations from a re-analysis of the deposited data

Results flagged for a closer look

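In 252 genes the step from low to high dose differed between Palmul-tang and Sibjeondaebo-tang by the interaction test. The difference of the log2 changes was 0.83 for GOLGA8A, 0.78 for FER1L4, 0.87 for PABPC1L, 1.00 for CSAD and 0.89 for HERC2P2. It was -0.67 for AKR1C2, -0.27 for COIL, -0.15 for SLC16A1 and -0.35 for CLIC3. Between Palmul-tang and Sagunja-tang 1 gene differed, AKR1B10, by 0.54.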

How the results depend on the processing

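The count of 2513 genes between high and low dose was 2427 with DESeq2, 2486 with RLE size factors, 2278 without the filter, 2477 with only the groups compared and 1725 to 1974 with a library left out. Higher calls were 2155 with GC and length trends removed and 879 to 1062 with a library left out, lower calls 821 to 1035. Between 65.5% and 99.9% of the 2513 genes were called again in each alternative, all in the same direction. Of the 184 genes named by rule and called between these doses, 152 were called in every alternative, 30 lost the call without at least 1 library and 0 reversed. Of further genes named in the text, GGT1, ABCB1, MVD, FDPS, NSDHL, EBP, HSPD1, SPINK4 and TFF2 also lost it without at least 1 library. High against medium gave 728 to 909 calls with a library left out and 835 with only the groups compared. Medium against low gave 6 with DESeq2, 78 without the filter, 0 with only the groups compared and 0 to 1 with a library left out. The Sibjeondaebo-tang difference gave 473 without the filter and 170 to 283 with a library left out. The Samul-tang difference gave 4 with DESeq2, 87 without the filter, 1 with only the groups compared and 0 to 1 with a library left out. The Sagunja-tang difference gave 22 with DESeq2, 2 with GC and length trends removed, 237 without the filter, 0 with only the groups compared and 0 to 1636 with a library left out. The cause of these moves was not tested.

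Replicate numbers were not taken as pairing between high and low dose, where same-numbered libraries had correlated deviations of 0.20, 0.03 and 0.11, or between high and medium dose (0.34, 0.08 and 0.38). With the number as a block over all libraries there were 2864 calls between high and low dose (2745 with only the groups compared), 1463 between high and medium (1523), 1 between medium and low (3), 326 for Sibjeondaebo-tang (302), 3 for Samul-tang (5) and 22 for Sagunja-tang (0). In high and low dose, each library correlated best with its own number except the second high-dose library. Groups of 2 left with 1 library were assumed to vary like the others. Among genes near or below 1 CPM, the call was lost without a library in 6 of 6 fits for ABCB1, 4 for SPINK4 and 0 for AKR1B1; the part of depth was not tested.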

Other observations

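Interferon-stimulated genes were lower at the high dose in 8 of 23 cases and higher in 0, with a median log2 fold change of -0.27, and the count was 5 without the third low-dose library. IFIT2, an RNA-binding antiviral protein, went from 4.60, 5.16 and 4.73 CPM to 2.88, 2.71 and 3.07 CPM (log2 -0.74 ± 0.10, adjusted p = 6.55e-06). Its vehicle level was 2.91 ± 0.230 CPM (SD, n = 3), close to the high dose and below the low dose. IFIT1, which binds foreign RNA caps, went from 3.99, 4.32 and 5.50 CPM to 3.00, 2.89 and 3.05 CPM (log2 -0.62 ± 0.12, adjusted p = 0.00062). RIGI, the RNA sensor, went from 11, 11.7 and 12.8 CPM to 9.82, 9.05 and 8.86 CPM (log2 -0.36 ± 0.07, adjusted p = 0.00125). ISG15 (-0.15) was not called. Of 15 genes of MHC class I presentation, 3 were lower and 1 higher, against 6.75% and 7.66% of all genes tested.

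Of 18 epithelial chemokine and NF-kB feedback genes 0 were higher and 1 was lower, a smaller share than the 14.4% called over all genes tested. The lower gene was LCN2, the siderophore-binding lipocalin, at 104, 94.5 and 104 CPM against 80.5, 79.6 and 83.9 CPM (log2 -0.31 ± 0.08, adjusted p = 0.00594). By annotated type, 17.8% of 13265 protein-coding genes were called, 1288 higher and 1078 lower, while long intergenic RNAs gave 11 higher and 25 lower calls of 846 and antisense RNAs 11 higher and 27 lower of 1297. CEACAM5, a carcinoembryonic antigen, went from 6.38, 5.26 and 6.54 CPM to 8.91, 9.57 and 8.76 CPM (log2 0.59 ± 0.12, adjusted p = 0.000748).

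The remaining lists are set beside the 14.4% of all genes that were called. Metallothioneins and zinc exporters gave 0 higher and 2 lower calls of 9, hypoxia genes 2 and 4 of 19, retinoid genes 1 and 4 of 13, and MondoA and ChREBP targets 0 and 1 of 6. TGF-beta and mesenchymal genes gave 0 higher and 3 lower calls of 15, lysosome genes 4 and 4 of 27, splicing regulators 4 and 2 of 24, junction genes 2 and 2 of 21, and host genes of small nucleolar RNAs 2 and 0 of 16. Several of these counts rested on single libraries. The 2 lower metallothionein calls were 0 without the second high-dose or the first or the third low-dose library, and 1 without the third high-dose library. The 4 lower hypoxia calls were 1 without the third high-dose library and 2 without the second or the third low-dose library, and the 2 higher ones were 1 without the first or the third high-dose or the second or the third low-dose library. The 4 lower retinoid calls were 2 without the first high-dose library. The 4 higher splicing calls were 1 without the second low-dose library and 2 without the first or the second high-dose or the first low-dose library. The 2 higher calls on small nucleolar RNA host genes were 0 without the second or the third high-dose or the third low-dose library, and 1 without the first high-dose or the second low-dose library. The 2 lower junction calls were 1 without the first or the third high-dose or the first or the third low-dose library.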
